A study of Mus musculus with 12 samples.

Results

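The 10 CC and XC chemokine ligands Ccl2, Ccl3, Ccl4, Ccl5, Ccl6, Ccl7, Ccl9, Ccl17, Ccl22 and Xcl1 were followed in RNA of CD11c cells from the mouse inguinal lymph node. They were taken by name from a table of 52355 genes, and all 10 passed the filter on low counts. CD11c, the integrin encoded by Itgax, marks dendritic cells and is also carried by some macrophages and natural killer cells. The 12 libraries fell into 3 groups of 4. TdLN_CD40 libraries came from nodes draining a subcutaneous KPC tumor in mice given a CD40 agonist, which triggers an activating receptor of antigen-presenting cells. TdLN libraries came from nodes draining such a tumor without the agonist, and Healthy libraries came from nodes of mice with neither tumor nor agonist. KPC tumors model pancreatic carcinoma. The sources used here do not give the strain, sex or age of the mice, the agonist's dose and timing, whether other mice got a control treatment, or how CD11c cells were isolated. They also do not say whether each library is a separate animal, so a p-value reflects only the spread among these libraries, which may be partly technical.

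Chemokines are small secreted proteins that direct cell migration through receptors coupled to G proteins. CC chemokines carry a pair of adjacent cysteines near the start of the mature protein, whereas XCL1 lacks one of the disulfide bonds of the other families. In the lymph node, dendritic cells that have matured secrete CCL22 and CCL17, which attract T cells bearing CCR4. CCL5, CCL3 and CCL4 attract T cells and myeloid cells, CCL2 and CCL7 act on CCR2 of monocytes, the mouse chemokines CCL6 and CCL9 on CCR1, and XCL1 on XCR1, a receptor of type 1 conventional dendritic cells.

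Estimated counts summed to between 32626784 and 56320661 per library, so that depth limited only the members with few counts. Itgax was present in every library, at 641 to 921 CPM in TdLN_CD40, 751 to 1130 CPM in TdLN and 647 to 1090 CPM in Healthy, where CPM is the count scaled to the library's size (TMM). Summed over 8 CD11c and dendritic cell markers the level was 17453 to 24968 CPM in TdLN_CD40, 25399 to 41094 CPM in TdLN and 24735 to 40230 CPM in Healthy. Each library title opens with a prefix that recurs once in every group, and this prefix gave the replicate number. Libraries with the same prefix deviated from their group means together, with correlations over genes of 0.204 to 0.473 in 12 pairs. The sources used here do not say what it stands for. A gene was called at an adjusted p under 0.05 over 23729 genes in a fit with no term but the group. Where a second fit with the prefix as a block changed the call of a ligand, its value is given as well. Fold changes are log2 differences with standard errors (SE), and group values are means ± SD (n = 4 libraries each).

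Ccl22 and Ccl17, the ligands of CCR4, lie close together on chromosome 8 of GRCm38, at 94745590 to 94751699 and at 94810453 to 94812036, both on the plus strand and both protein-coding. Ccl22 rose in TdLN_CD40 against both other groups. Ccl17 rose against Healthy and, with the prefix block, also against TdLN. The stretches just before the 2 genes are shown because the 2 ligands share a receptor and these stretches differ in the letters marked. They come from RefSeq on GRCm38.p6, at chr8:94745434-94745589 for Ccl22 and chr8:94810203-94810452 for Ccl17, both read on the plus strand, and stop before the start of the gene in GENCODE. Capitals mark GGGACTT, the opening letters of the kappaB enhancer element.
Ccl22: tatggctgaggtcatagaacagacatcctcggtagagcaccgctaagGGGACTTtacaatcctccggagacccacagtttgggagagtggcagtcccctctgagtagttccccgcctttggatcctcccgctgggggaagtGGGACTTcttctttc
Ccl17: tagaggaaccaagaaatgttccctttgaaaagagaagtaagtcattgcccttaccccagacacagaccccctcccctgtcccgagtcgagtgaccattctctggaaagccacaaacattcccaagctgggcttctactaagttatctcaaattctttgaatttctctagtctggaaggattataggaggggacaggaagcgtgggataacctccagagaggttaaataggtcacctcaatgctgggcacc

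The letters GGGACTT, chosen after the sequence was seen, occurred 2 times in the Ccl22 window, at -203 to -197 and at -109 to -103 from the RefSeq start. Of 32851 RefSeq windows of 250 bases searched on both strands, 4.65% held GGGACTT at least once and 0.11% held it 2 or more times. Because the letters were taken from the Ccl22 sequence itself, these shares do not measure how rare its matches are. Only the opening letters were searched, not the whole kappaB element. No window of Ccl3, Ccl6, Ccl9, Ccl17 or Xcl1 held it. The core of the interferon-stimulated response element occurred in none of the 6 windows, against 2.98% of all windows. TGANTCA, a loose form of the AP-1 motif that allows any middle letter, occurred in the Ccl9 window alone, as TGAATCA. It occurred in 6.75% of all windows. TATAAA occurred in the Ccl9 window alone as well, against 12.4%. The Ccl9 matches of TGANTCA and TATAAA did not overlap. A match of letters is a description and not a binding site.

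Ccl22 reached 1344, 1319, 1216 and 2251 CPM in TdLN_CD40 replicates 1 to 4, against 625, 523, 372 and 789 CPM in TdLN and 741, 774, 564 and 588 CPM in Healthy. All 4 TdLN_CD40 libraries stood above every other library, with replicate 4 the highest. Ccl22 was higher in TdLN_CD40 than in TdLN by a log2 fold change of 1.41 (SE 0.24, adjusted p = 0.00697) and higher than in Healthy by 1.20 (SE 0.24, adjusted p = 0.00810). TdLN and Healthy libraries overlapped, at 577 ± 175 and 667 ± 106 CPM (log2 fold change -0.21, adjusted p = 0.836).

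Ccl17 reached 55.3, 35.9, 44.4 and 71.1 CPM in TdLN_CD40 replicates 1 to 4, against 42.3, 18.3, 22.9 and 38.2 CPM in TdLN and 28.7, 13.6, 19.8 and 21.9 CPM in Healthy. The TdLN_CD40 libraries overlapped those of TdLN and stood above all those of Healthy. Within each of the 4 prefixes the order was TdLN_CD40, then TdLN, then Healthy. The log2 fold change of TdLN_CD40 against Healthy was 1.30 (SE 0.29, adjusted p = 0.0158). Against TdLN it was 0.76 (SE 0.29, adjusted p = 0.237), and 0.80 (SE 0.12, adjusted p = 0.00115) once the prefix was a block. TdLN against Healthy gave 0.53 (SE 0.29, adjusted p = 0.694), and 0.50 (SE 0.12, adjusted p = 0.0330) with the block. That last call was lost without any 1 of replicates 1, 2, 3 and 4 (adjusted p 0.103, 0.176, 0.0929 and 0.0793). The call against Healthy without the block was lost without TdLN_CD40 replicate 4 (1.08, adjusted p = 0.0544) and without Healthy replicate 3 (1.26, adjusted p = 0.0628).

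**Figure D1:**
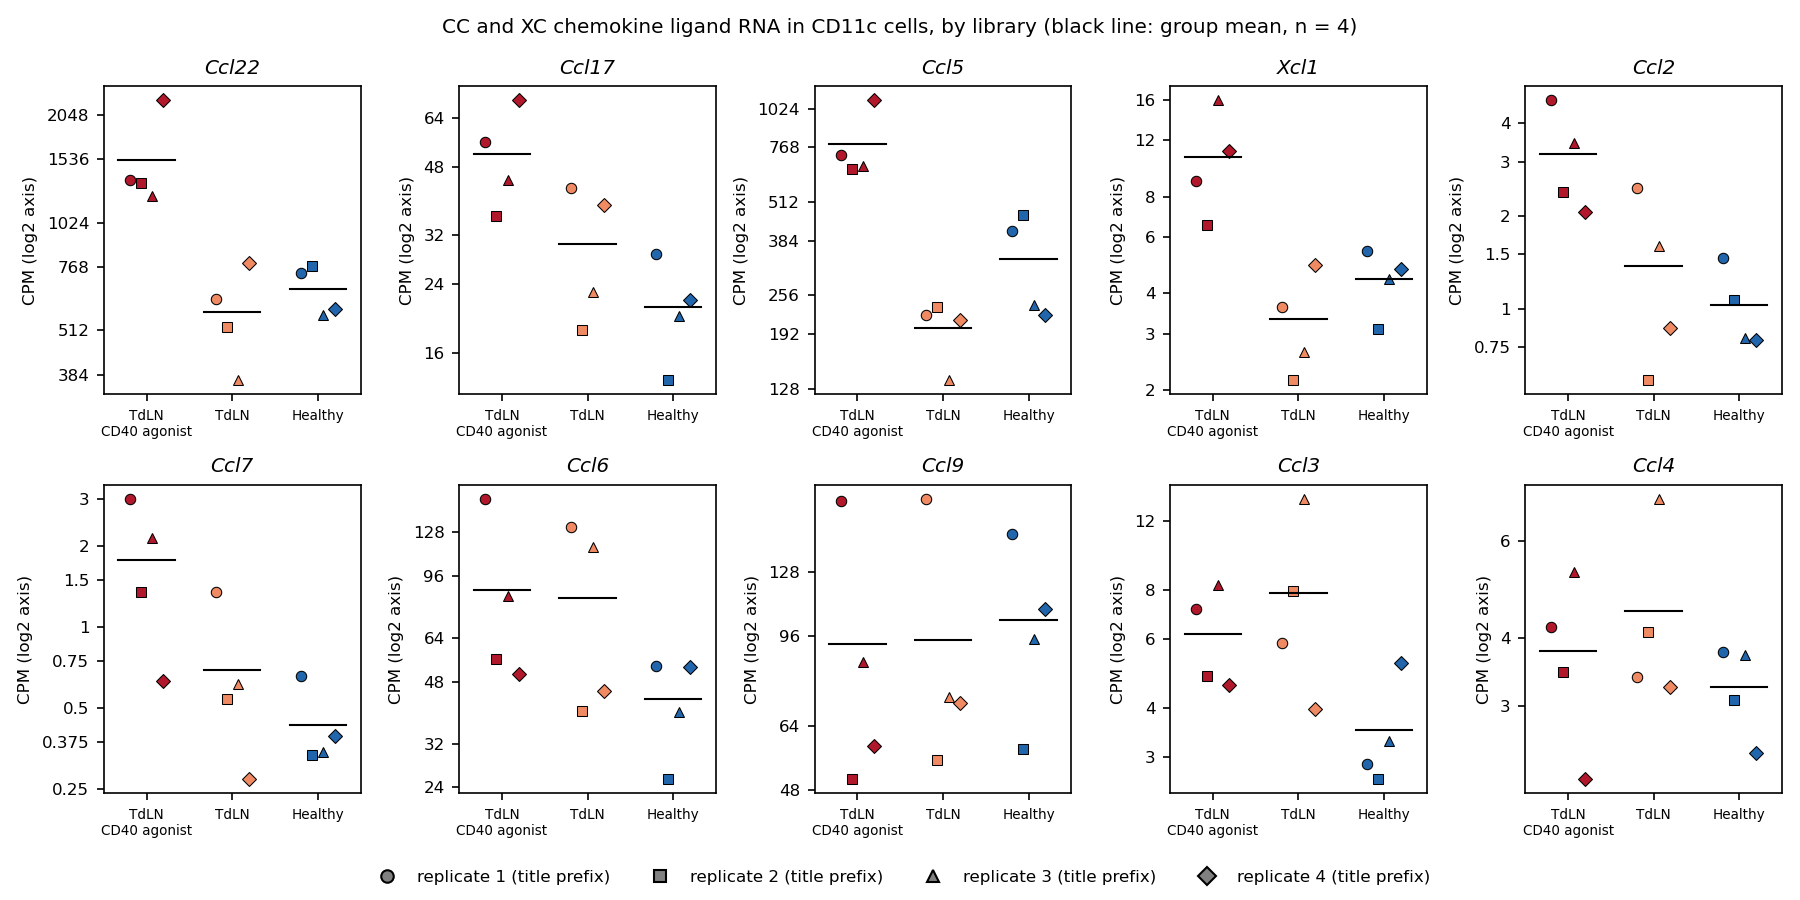
CPM of the 10 ligands in every library (log2 axes), with TdLN_CD40 on the left, TdLN in the middle and Healthy on the right, 1 symbol per replicate number and a line at the mean of 4 libraries. Ccl22, Ccl5 and Xcl1 are above every TdLN and Healthy library in all 4 TdLN_CD40 libraries, whereas Ccl9 runs from 50.4 to 177 CPM in TdLN_CD40 and overlaps throughout.

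The summed level of 12 markers of mature and migratory dendritic cells was also higher in TdLN_CD40, while every marker of the other dendritic cell lists that was called against TdLN without the block was lower. The mature markers summed to 7239 to 9981 CPM in TdLN_CD40, 4107 to 5684 CPM in TdLN and 4626 to 6567 CPM in Healthy, and none of them was at 0. Against TdLN, 3 of the 12 were called higher and 0 lower, and 10 were called higher with the block. Against Healthy, 5 were called higher and 0 lower, and 9 higher with the block. Ccr7, the receptor that leads dendritic cells into the node, was at 762 ± 139 CPM in TdLN_CD40 and 236 ± 35.4 CPM in TdLN. Fscn1 and Tmem123, at higher levels, were called against TdLN only with the block (adjusted p = 0.00347 and 0.0237, and 0.0504 and 0.257 without it). Cd83 was not called in either fit, at 248 ± 28.4 CPM in TdLN_CD40 and 248 ± 13.5 CPM in TdLN. Of 8 type 2 dendritic cell markers, which summed to 1029 to 1590 CPM in TdLN_CD40, 1325 to 1992 CPM in TdLN and 1082 to 1776 CPM in Healthy, 0 were called higher and 4 lower against TdLN, and 5 lower with the block. Of 8 type 1 markers 0 were called higher and 1 lower, and 6 lower with the block. Of the 8 CD11c and dendritic cell markers edgeR called 0, 6 had an unadjusted p under 0.05, and the block called 6 lower and 1 higher. In bulk RNA, fewer or more cells of a type and less or more RNA per cell cannot be told apart. The part of these markers in the Ccl22 and Ccl17 results was not tested.

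Ccl5, an inflammatory chemokine made by activated T cells, natural killer cells and dendritic cells, and Xcl1, the ligand of XCR1, both rose with the agonist. Ccl5 lies on chromosome 11 at 83525778 to 83530518, on the minus strand. It reached 724, 656, 668 and 1091 CPM in TdLN_CD40 replicates 1 to 4, against 221, 235, 136 and 213 CPM in TdLN and 413, 464, 238 and 220 CPM in Healthy. The TdLN_CD40 libraries lay above all others. Ccl5 was higher in TdLN_CD40 than in TdLN by a log2 fold change of 1.96 (SE 0.27, adjusted p = 0.00189), which was 3.90-fold, and higher than in Healthy by 1.23 (SE 0.26, adjusted p = 0.0111). In the blocked fit without replicate 3 the second call was lost (1.14, adjusted p = 0.107).

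Between TdLN and Healthy the Ccl5 libraries overlapped through Healthy replicate 4 alone, since Healthy replicates 1, 2 and 3 stood above all 4 TdLN libraries. TdLN was the lower library in all 4 prefixes, with log2 ratios of -0.98 to -0.05. The fitted log2 fold change of -0.73 was not called (SE 0.26, adjusted p = 0.425), but was called in the blocked fit without replicate 4 (-0.90, adjusted p = 0.0332).

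Xcl1 lies on chromosome 1 at 164931644 to 164935527, on the minus strand. It reached 8.91, 6.52, 16.0 and 11.1 CPM in TdLN_CD40 replicates 1 to 4, against 3.63, 2.15, 2.62 and 4.91 CPM in TdLN and 5.40, 3.11, 4.43 and 4.76 CPM in Healthy. The TdLN_CD40 libraries again stood above all others, with replicate 3 the highest. Xcl1 rose by a log2 fold change of 1.68 against TdLN (SE 0.31, adjusted p = 0.00997) and 1.26 against Healthy (SE 0.31, adjusted p = 0.0235). The call against Healthy was lost without TdLN_CD40 replicate 3 or 4 or Healthy replicate 2, 3 or 4, with an adjusted p of 0.0954, 0.0624, 0.0770, 0.0735 and 0.0535, whereas with the block it was 0.00185. TdLN against Healthy gave -0.41 (SE 0.31, adjusted p = 0.775). Xcl1 overlaps the gene Gm20743 on the other strand, and the sources used here do not say whether strand was used in counting.

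Natural killer cells and T cells are known sources of Xcl1 and Ccl5. Against TdLN, natural killer markers leaned higher in TdLN_CD40, with Klrd1 the exception, and T cell markers were mostly not called. The summed level of 12 natural killer markers was 91.6 to 229 CPM in TdLN_CD40, 82.8 to 119 CPM in TdLN and 77.1 to 141 CPM in Healthy, with none at 0. Against TdLN, 2 of the 12 were called higher, Gzma and Gzmb, which encode granzymes, and 1 lower, Klrd1, which encodes a subunit of a lectin-like receptor. With the block 7 were higher and 1 lower. Eomes, Klra4, Klrb1c and Klra8 were called in neither fit, at log2 fold changes of 0.10, 0.19, 0.31 and 0.39 without the block. Against Healthy these leaned lower, also without a call. Taken over all 12 natural killer markers, log2 fold changes against TdLN centred on 0.87 (median, without the block). Their summed level was above that of TdLN in all 4 prefixes. Gzma averaged 17.0 ± 7.93 CPM in TdLN_CD40 and 3.85 ± 0.776 CPM in TdLN, and Klrd1 18.1 ± 3.20 CPM in TdLN_CD40 and 39.8 ± 10.2 CPM in TdLN. Against Healthy, 2 were higher and 1 lower, and 3 higher and 1 lower with the block. T cell markers summed to 119 to 214 CPM in TdLN_CD40, 113 to 268 CPM in TdLN and 154 to 285 CPM in Healthy. Against TdLN, edgeR called 0 of 12 of them, 1 had an unadjusted p under 0.05, and the blocked fit called 1 lower. In TdLN_CD40 against Healthy, 5 of the 12 T cell markers were called lower and 0 higher, and 10 lower and 1 higher with the block. In TdLN against Healthy edgeR called 0, 7 had an unadjusted p under 0.05, and the block called 5 lower and 1 higher. The summed T cell level was below that of Healthy in all 4 prefixes for both TdLN_CD40 and TdLN. The part of these markers in the Xcl1 and Ccl5 results was not tested. Gzmb, Eomes, Klra4, Klrb1c and Klra8 were named after their values were seen.

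**Figure D2:**
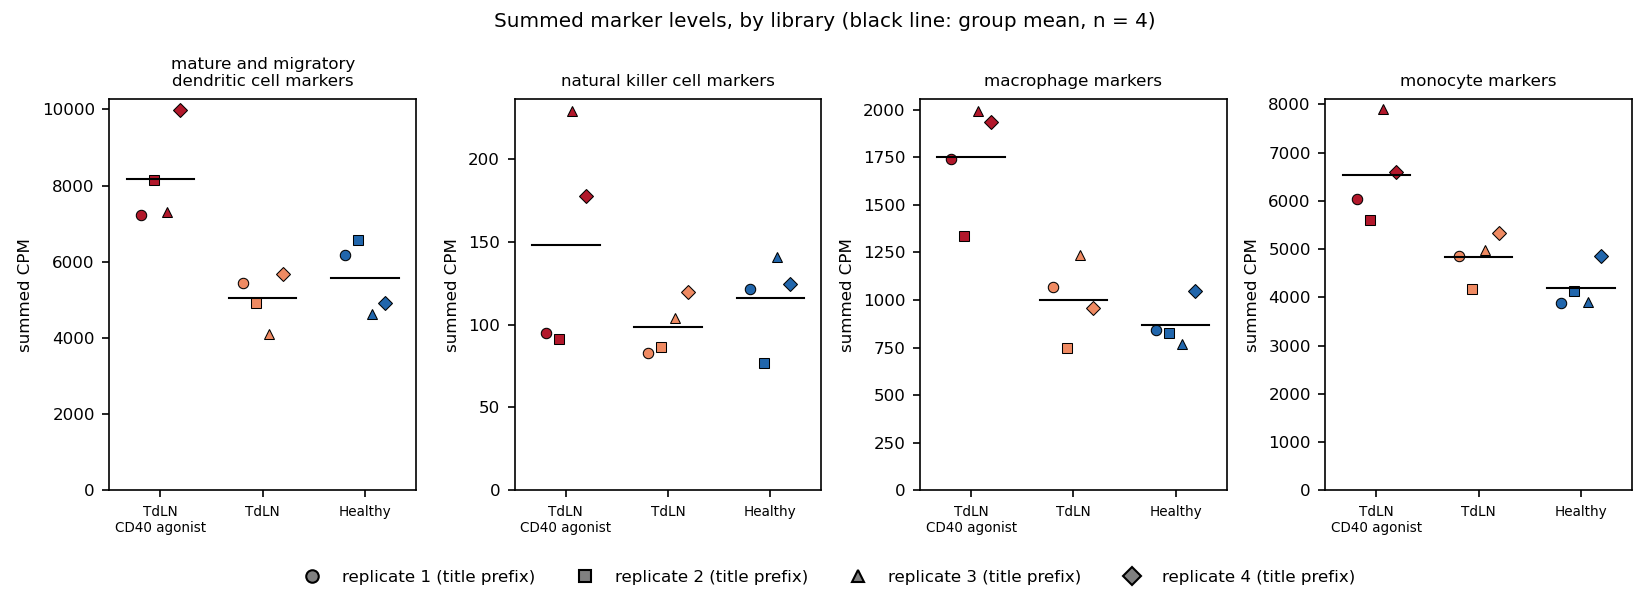
Summed CPM of marker lists of cell types by library, with TdLN_CD40, TdLN and Healthy in that order. Mature and migratory dendritic cell markers run from 7239 to 9981 CPM in TdLN_CD40 and from 4107 to 5684 CPM in TdLN, and natural killer markers from 91.6 to 229 CPM in TdLN_CD40 and from 82.8 to 119 CPM in TdLN.

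Ccl2 and Ccl7, the ligands of CCR2 that draw monocytes out of the marrow and into tissue, lie close together on the plus strand of chromosome 11, at 82035571 to 82037453 and 82045712 to 82047525. Both rose in TdLN_CD40 against Healthy, and with the prefix block also against TdLN, at low levels. Ccl2 reached 4.76, 2.40, 3.46 and 2.06 CPM in TdLN_CD40 replicates 1 to 4, against 2.46, 0.586, 1.60 and 0.864 CPM in TdLN and 1.47, 1.06, 0.802 and 0.793 CPM in Healthy. In every prefix the TdLN_CD40 library was the highest of the 3, and the TdLN_CD40 libraries stood above all Healthy libraries and overlapped those of TdLN. Ccl2 rose by a log2 fold change of 1.62 against Healthy (SE 0.44, adjusted p = 0.0397). Against TdLN it was 1.20 (SE 0.43, adjusted p = 0.197), and 1.28 (SE 0.26, adjusted p = 0.00655) with the block.

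Ccl7 reached 2.99, 1.35, 2.15 and 0.634 CPM in TdLN_CD40 replicates 1 to 4, against 1.35, 0.542, 0.617 and 0.273 CPM in TdLN and 0.660, 0.336, 0.344 and 0.396 CPM in Healthy. These are 29 to 129 estimated counts in TdLN_CD40, 12 to 59 in TdLN and 12 to 27 in Healthy, so counting error is larger here than for the other members. Replicate 4 of TdLN_CD40 lay below the highest library of both other groups, while within its own prefix it was the highest. Ccl7 rose by a log2 fold change of 2.03 against Healthy (SE 0.53, adjusted p = 0.0351). Against TdLN it was 1.35 (SE 0.52, adjusted p = 0.242), and 1.37 (SE 0.30, adjusted p = 0.0102) with the block. The blocked call against TdLN was lost without replicate 1, 2 or 3 (adjusted p 0.0550, 0.0580 and 0.0706).

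Without the block, the calls of Ccl2 and Ccl7 against Healthy depended on single libraries. Each was lost without TdLN_CD40 replicate 1, 2 or 3 and without Healthy replicate 2, 3 or 4, with an adjusted p of 0.0522 to 0.126 for Ccl2 and 0.0506 to 0.114 for Ccl7. Without TdLN_CD40 replicate 1 the log2 fold change was 1.35 for Ccl2 and 1.65 for Ccl7. With the block both had an adjusted p of 0.00135. Neither was called between TdLN and Healthy, with log2 fold changes of 0.42 for Ccl2 (adjusted p = 0.819) and 0.68 for Ccl7 (adjusted p = 0.788). Ccl2 overlaps Gm17268 on the other strand, and a retained-intron transcript took up to 58.1% of its estimated counts in a Healthy library.

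Markers of macrophages and monocytes, cells known to make these ligands or to follow them, were called in both directions. The summed macrophage level was 1334 to 1993 CPM in TdLN_CD40, 746 to 1236 CPM in TdLN and 769 to 1046 CPM in Healthy. Against TdLN, 4 of 10 were called higher and 0 lower, and 4 higher and 1 lower with the block. C1qc, a complement component, was called higher and averaged 313 ± 72.4 CPM in TdLN_CD40 and 142 ± 41.3 CPM in TdLN. C1qa and C1qb, at higher levels, were not called in either fit. C1qa averaged 413 ± 68.6 CPM in TdLN_CD40 and 211 ± 74.1 CPM in TdLN (adjusted p = 0.0522, and 0.0700 with the block). C1qb averaged 334 ± 64.5 CPM in TdLN_CD40 and 169 ± 68.4 CPM in TdLN (adjusted p = 0.0652, and 0.0859 with the block). The marker called lower with the block was Adgre1, which encodes F4/80, at 97.6 ± 6.82 CPM in TdLN_CD40 and 150.4 ± 25.1 CPM in TdLN (log2 fold change -0.62, adjusted p = 0.0680, and -0.61, adjusted p = 0.00240, with the block). It was named after its values were seen. Against Healthy, 7 of 10 were called higher and 1 lower in both fits.

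Of 10 monocyte markers 1 was called higher and 2 lower against TdLN in both fits, with a median log2 fold change of -0.03 over the list. The 10 markers summed to 5601 to 7913 CPM in TdLN_CD40, 4169 to 5341 CPM in TdLN and 3892 to 4855 CPM in Healthy. Lyz2, the lysozyme gene, had the highest level of the list. It was the one called higher, at 5086 ± 865 CPM in TdLN_CD40 and 3161 ± 297 CPM in TdLN. Ccr2, at 132 ± 11.1 CPM in TdLN_CD40 and 363 ± 64.5 CPM in TdLN, and F13a1, a coagulation factor gene at 4.99 ± 1.43 CPM in TdLN_CD40 and 11.5 ± 2.68 CPM in TdLN, were called lower, the second named after its values were seen. Against Healthy, 3 were called higher and 2 lower, and 5 higher and 2 lower with the block. No marker of these lists was at 0 in all libraries. The part of these markers in the Ccl2 and Ccl7 results was not tested.

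Ccl6 and Ccl9, ligands of CCR1 that lie close together on the minus strand of chromosome 11, at 83587882 to 83593087 and 83572919 to 83578636, did not pass the test in any comparison of the 12 libraries. Ccl9 levels followed the prefix far more than the group, and those of Ccl6 less clearly so. The prefix held 88.6% of the variance of log2 CPM of Ccl9 and 51.5% of that of Ccl6, and the group held 3.07% and 29.9%. With 4 prefixes and 3 groups, the prefix would hold the larger share on average even without an effect of either. The mitochondrial share of counts and the number of genes detected followed the prefix as well. Mitochondrial genes took 4.13% to 4.75% of counts in the 3 libraries of prefix 1 and 1.23% to 2.90% in the other 9, and 23092 to 23441 genes had 10 or more counts in prefix 1, against 20964 to 22919 in the other 9. Their part in the Ccl9 and Ccl6 values was not tested. Ccl9 reached 177, 50.4, 85.6 and 58.6 CPM in TdLN_CD40 replicates 1 to 4, against 178, 55.0, 73.1 and 71.2 CPM in TdLN and 152, 57.7, 94.8 and 109 CPM in Healthy. Replicate 1 was the highest in every group and replicate 2 the lowest, and the groups overlapped throughout. The log2 fold change of TdLN_CD40 was -0.02 against TdLN (SE 0.46, adjusted p = 0.996) and -0.15 against Healthy (SE 0.46, adjusted p = 0.919), and that of TdLN against Healthy was -0.13 (adjusted p = 0.944).

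Ccl6 reached 159, 55.8, 83.9 and 50.6 CPM in TdLN_CD40 replicates 1 to 4, against 132, 39.7, 116 and 45.2 CPM in TdLN and 53.3, 25.3, 39.5 and 52.9 CPM in Healthy. TdLN_CD40 replicate 4 and TdLN replicates 2 and 4 fell within the Healthy range, and the other libraries of both tumor groups stood above it. The fitted log2 fold change was 0.07 for TdLN_CD40 against TdLN (adjusted p = 0.988), 1.03 for TdLN_CD40 against Healthy (SE 0.46, adjusted p = 0.273) and 0.96 for TdLN against Healthy (SE 0.46, adjusted p = 0.666). In the blocked fit without replicate 4, Ccl6 was called against Healthy in TdLN_CD40 (1.29, adjusted p = 0.00495) and in TdLN (1.19, adjusted p = 0.0169). A retained-intron transcript took 41.2% to 50.5% of the Ccl6 counts, and the gene overlaps E230016K23Rik on the other strand.

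The ratio of Ccl9 to Ccl6, taken in TPM (a level per transcript length), set the Healthy libraries apart. It was 1.19 to 1.43 in TdLN_CD40 and 0.878 to 2.05 in TdLN, against 2.73 to 3.82 in Healthy, so that both groups lay below every Healthy library. This ratio sums all transcripts of each gene, noncoding ones included, and was looked at without a test. The TPM ratio of Ccl22 to Ccl17 was 3.80 to 5.50 in TdLN_CD40, 2.36 to 4.27 in TdLN and 3.94 to 8.92 in Healthy, and the groups overlapped. Within every prefix, however, the TdLN library had the lowest ratio of Ccl22 to Ccl17. This was not tested either.

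**Figure D3:**
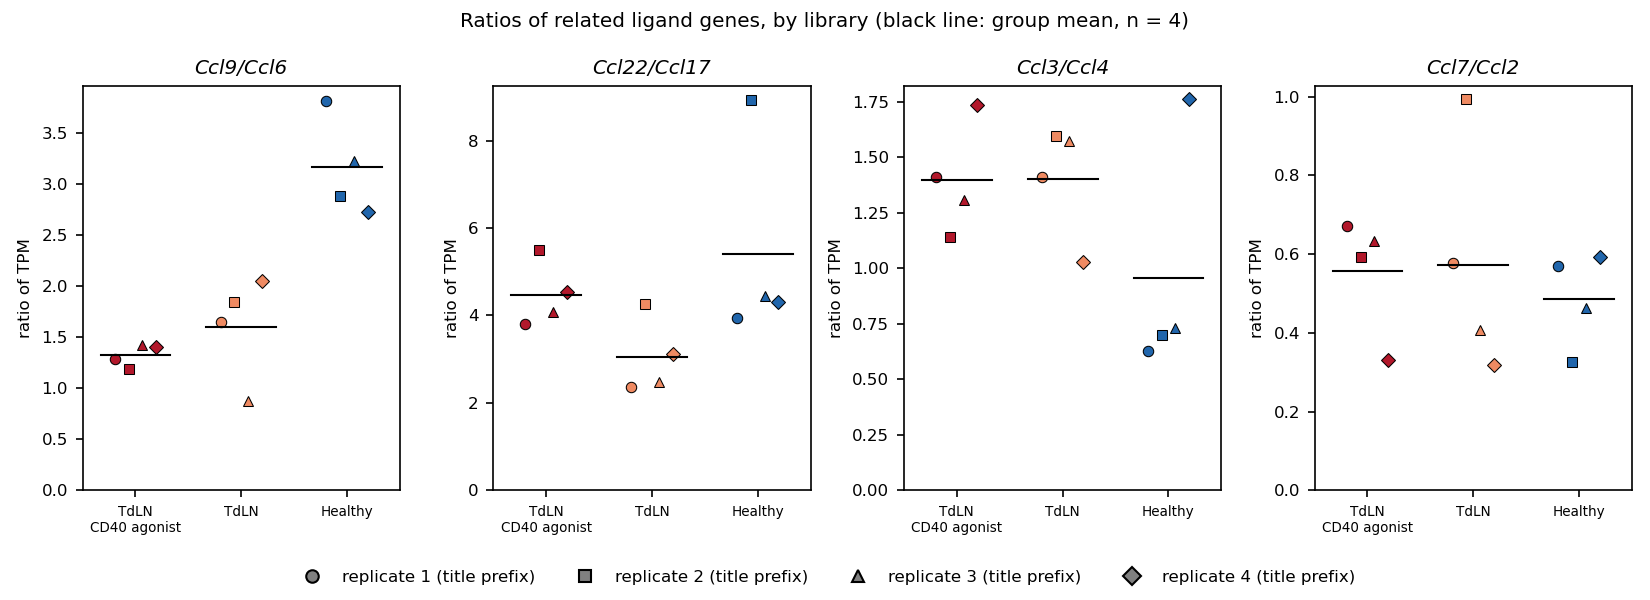
Ratios of pairs of related ligand genes in TPM by library, all transcripts of a gene summed, with TdLN_CD40, TdLN and Healthy in that order. Ccl9 over Ccl6 is at most 1.43 in TdLN_CD40 and 2.05 in TdLN, and at least 2.73 in Healthy, whereas the other ratios overlap between groups.

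Ccl3 and Ccl4, which encode macrophage inflammatory proteins, lie on chromosome 11 at 83647844 to 83649355 on the minus strand and at 83662584 to 83664683 on the plus strand. Neither passed the test in the 12 libraries. Ccl3 reached 7.15, 4.82, 8.23 and 4.59 CPM in TdLN_CD40 replicates 1 to 4, against 5.88, 7.98, 13.7 and 3.98 CPM in TdLN and 2.88, 2.63, 3.30 and 5.21 CPM in Healthy. Within prefixes 1, 2 and 3 both tumor groups stood above Healthy, and within prefix 4 Healthy was the highest. The log2 fold change of TdLN_CD40 was -0.35 against TdLN (SE 0.35, adjusted p = 0.814) and 0.82 against Healthy (SE 0.35, adjusted p = 0.234), and that of TdLN against Healthy was 1.17 (SE 0.35, adjusted p = 0.280). In the blocked fit without replicate 4 Ccl3 was called in both comparisons with Healthy, at 1.19 for TdLN_CD40 (adjusted p = 0.00399) and 1.59 for TdLN (adjusted p = 0.00259).

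Ccl4 reached 4.18, 3.47, 5.28 and 2.21 CPM in TdLN_CD40 replicates 1 to 4, against 3.40, 4.10, 7.15 and 3.25 CPM in TdLN and 3.76, 3.08, 3.73 and 2.46 CPM in Healthy. The groups overlapped, with TdLN replicate 3 the highest library. The prefix held 67.0% of its variance and the group 14.5%. In log2 fold change it stood at -0.24 for TdLN_CD40 against TdLN (adjusted p = 0.876), 0.22 for TdLN_CD40 against Healthy (adjusted p = 0.816) and 0.46 for TdLN against Healthy (adjusted p = 0.758). Neutrophils are a known source of Ccl3, Ccl4 and Ccl6, and 10 of their markers summed to 65.9 to 143 CPM in TdLN_CD40, 54.6 to 186 CPM in TdLN and 28.0 to 39.7 CPM in Healthy. Of the 8 tested, 1 was called higher in TdLN against Healthy (5 with the block) and 3 in TdLN_CD40 against Healthy (7 with the block), with 0 lower. Their part in these values was not tested.

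Counted over all 10 ligands, TdLN_CD40 against TdLN gave 3 called higher (Ccl5, Ccl22 and Xcl1) and 0 lower, where 1.85% of all genes tested were called higher and 0.83% lower. With the prefix block, Ccl17, Ccl2 and Ccl7 were added for 6 higher and 0 lower, where 6.74% of all genes were called higher and 6.58% lower. The 3 calls were kept in each of the 12 fits that left out 1 library. The groups did not overlap for the same 3 ligands, where 4.87% of all genes were higher without overlap. The median log2 fold change was 0.98 over the 10 ligands and 0.02 over all genes.

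TdLN_CD40 against Healthy gave 6 called higher and 0 lower, where 4.25% of all genes were called higher and 2.03% lower. These were Ccl22, Ccl17, Ccl5, Xcl1, Ccl2 and Ccl7, also with the block, where 11.7% of all genes were called higher and 8.46% lower. For 5 of them, all but Ccl7, the groups did not overlap, where 7.6% of all genes were higher without overlap. Leaving out 1 library at a time left 2 to 6 called, and Ccl22 and Ccl5 were called in each of these 12 fits. The comparisons of TdLN_CD40 share its 4 libraries. The median log2 fold change was 1.22 over the ligands and -0.03 over all genes.

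TdLN against Healthy gave 0 of 10 called by edgeR, where 0.198% of all genes were called. The unadjusted p was under 0.05 for 2, Ccl3 and Ccl5. DESeq2 and limma called 0 as well. With the block 1 was called, Ccl17, where 6.3% of all genes were called, a share near that of the ligands. In that fit the unadjusted p was under 0.05 for 5, Ccl3, Ccl4, Ccl5, Ccl6 and Ccl17. The share of all genes under that unadjusted threshold was not counted. All 10 overlapped between these groups, where 4.27% of all genes did not overlap. The median log2 fold change was 0.44 over the ligands and -0.02 over all genes.

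**Figure D4:**
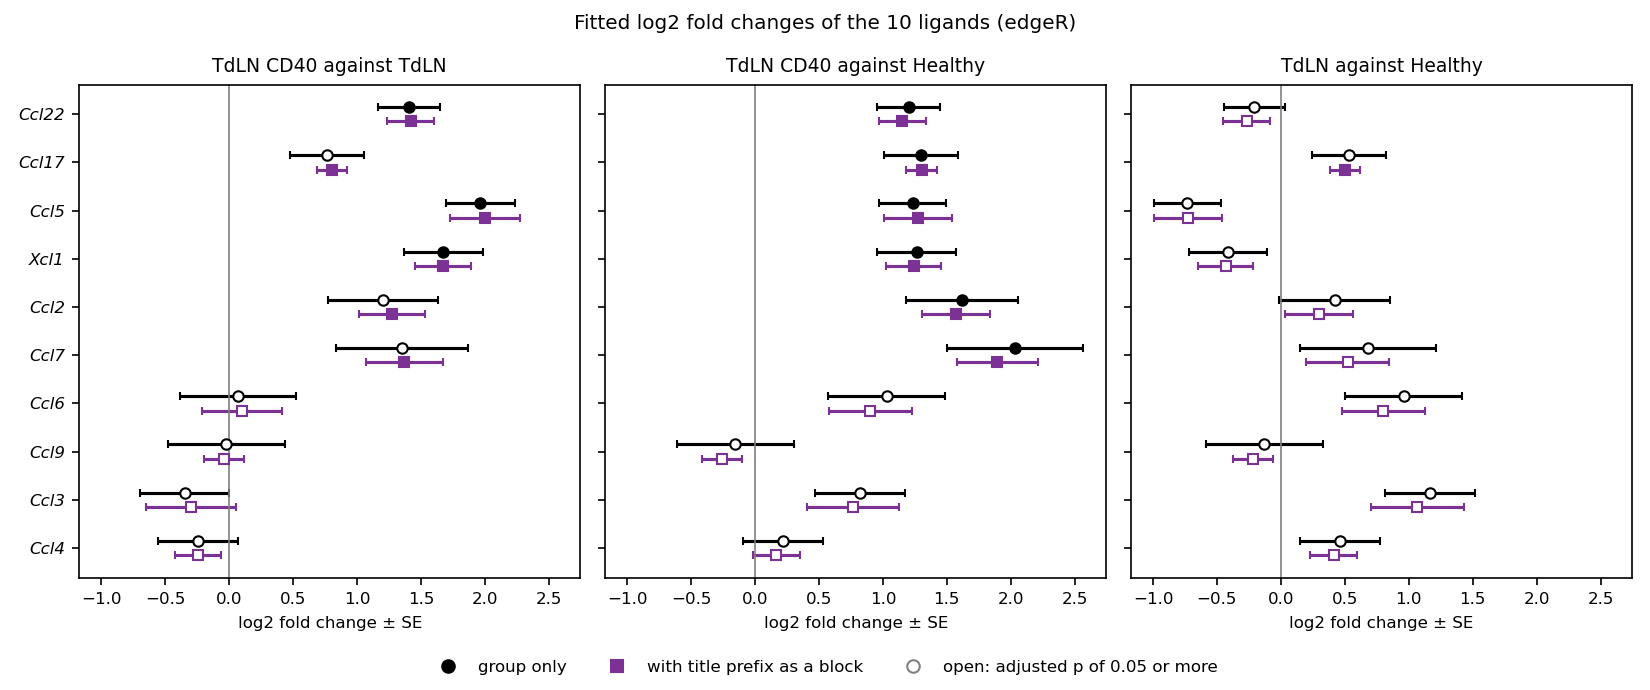
Log2 fold change of each ligand with its SE in the comparisons TdLN_CD40 against TdLN, TdLN_CD40 against Healthy and TdLN against Healthy, from the fits with and without the prefix block. Ccl5 is the farthest from 0 in the first comparison at 1.96 without the block, and Ccl7 in the second at 2.03.

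**Figure D5:**
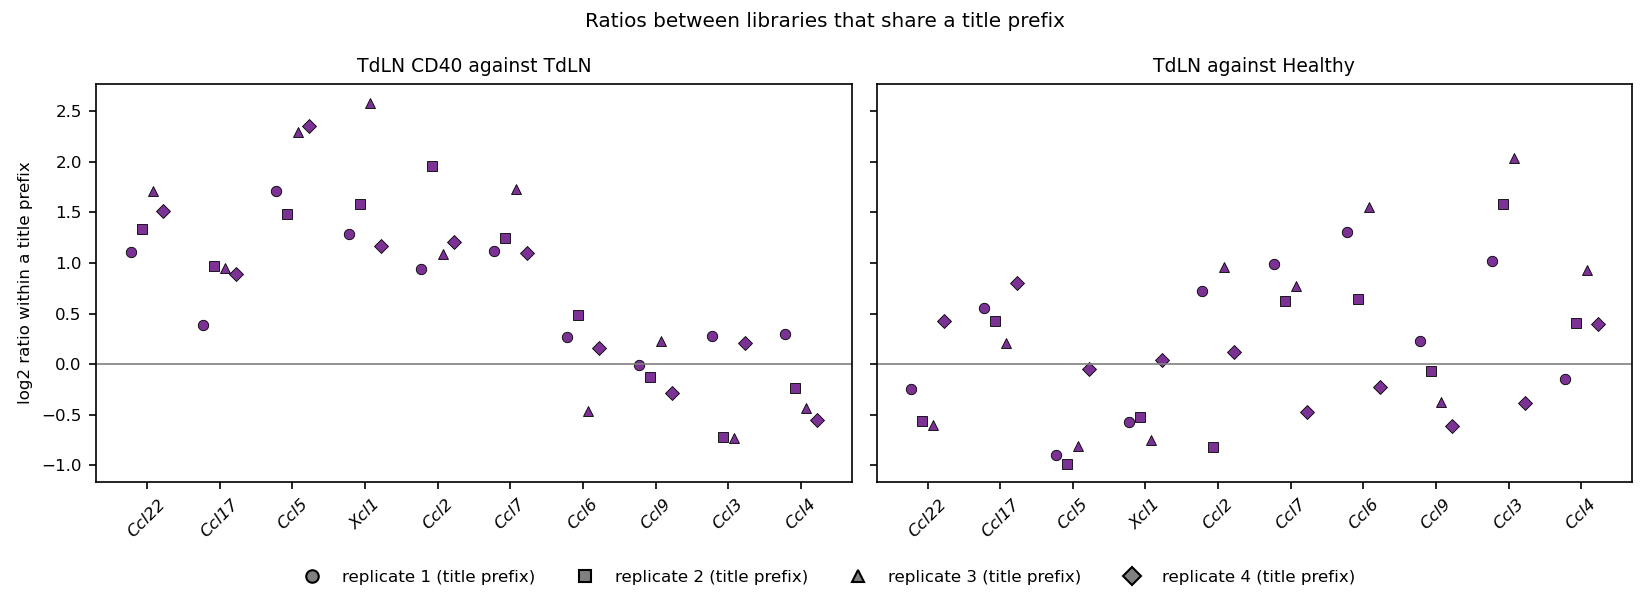
Log2 ratio of CPM of each ligand between 2 groups within each of the 4 title prefixes. For TdLN_CD40 over TdLN, all 4 points of Ccl5, Xcl1, Ccl22, Ccl17, Ccl2 and Ccl7 lie above 0, with those of Xcl1 between 1.17 and 2.59.

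Per length, Ccl5 was the most abundant ligand in every group, at 1821 ± 596 TPM in TdLN_CD40, 474 ± 113 TPM in TdLN and 820 ± 343 TPM in Healthy. It ranked 43 to 89 among all genes of a library in TdLN_CD40, 220 to 362 in TdLN and 89 to 239 in Healthy. Ccl22 followed at 566 ± 199 TPM in TdLN_CD40, 220 ± 58.9 TPM in TdLN and 273 ± 58.2 TPM in Healthy. Ccl5 exceeded Ccl22 beyond the spread of the libraries in all 3 groups.

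With all transcripts of a gene summed, the third place was held by Ccl17 in TdLN_CD40, at 127 ± 42.3 TPM. In TdLN and Healthy it was held by Ccl9, at 114 ± 55.6 and 130 ± 44.0 TPM. A noncoding transcript of 398 bases took 21.64% to 24.37% of Ccl9 counts in TdLN and 21.37% to 23.49% in Healthy. The protein-coding transcript has 3006 bases, so the short one weighs more in TPM than in counts. The place of Ccl9 on protein-coding transcripts alone was not tested. Ccl17, Ccl9 and Ccl6 overlapped from one to the next in TdLN_CD40. In TdLN Ccl22, Ccl9, Ccl6 and Ccl17 did so, and in Healthy Ccl17 and Ccl6. Xcl1 averaged 26.4 ± 10.1 TPM in TdLN_CD40, 8.33 ± 2.75 TPM in TdLN and 11.5 ± 1.73 TPM in Healthy. Xcl1 stood above Ccl3 and Ccl4 in all libraries of TdLN_CD40 and Healthy and overlapped both in TdLN. Ccl2 and Ccl7 were the lowest in every group, with Ccl7 at 2.27 ± 1.10 TPM in TdLN_CD40, 0.907 ± 0.531 TPM in TdLN and 0.589 ± 0.159 TPM in Healthy.

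Of 15 other CC chemokines listed, 11 were tested. Against TdLN, 2 were called higher in TdLN_CD40 and 0 lower. Ccl12, a mouse ligand of CCR2, averaged 14.3 ± 3.50 CPM in TdLN_CD40 and 6.24 ± 2.03 CPM in TdLN (log2 fold change 1.20, adjusted p = 0.0345). Ccl1, a ligand of CCR8, averaged 0.833 ± 0.332 CPM in TdLN_CD40 and 0.168 ± 0.0671 CPM in TdLN (log2 fold change 2.30, adjusted p = 0.0217). Ccl1 was near 0 in TdLN, at 0.0909 to 0.239 CPM, so its fold change rests on few counts.

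Against Healthy, 2 of the 11 were called higher in TdLN_CD40, Ccl12 (log2 fold change 1.70, adjusted p = 0.00225) and Ccl20, a ligand of CCR6, and the block added Ccl1 (1.45, adjusted p = 0.0368). Ccl20 was near 0, at 0.483 ± 0.421 CPM in TdLN_CD40 and 0.0218 ± 0.0255 CPM in Healthy. Between TdLN and Healthy edgeR called 0 of the 11, 3 had an unadjusted p under 0.05, and the block called Ccl20 alone.

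Of 16 receptor genes, 15 were tested. Ccr7 rose in TdLN_CD40 against TdLN (log2 fold change 1.69, adjusted p = 0.00139). Ccr2, the receptor of CCL2 and CCL7, fell to 132 ± 11.1 CPM in TdLN_CD40, against 363 ± 64.5 CPM in TdLN (log2 fold change -1.46, adjusted p = 0.000761). Xcr1, the receptor of XCL1, averaged 98.1 ± 44.2 CPM in TdLN_CD40 and 198 ± 51.6 CPM in TdLN (log2 fold change -1.01, adjusted p = 0.0886), and was called lower with the block (-1.08, adjusted p = 0.0140). The block also called Ccr9, a gut homing receptor, lower (-1.13, adjusted p = 0.00202).

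Against Healthy, 3 of the 15 receptors were called higher in TdLN_CD40 and 3 lower. Ccr7 (1.33, adjusted p = 0.00189), Ccr6 (1.41, adjusted p = 0.00187) and the atypical receptor Ccrl2 (1.07, adjusted p = 0.0124) were higher in log2 fold change. Ccr2 (-1.56, adjusted p = 0.000150), Xcr1 (-1.47, adjusted p = 0.00742) and Ccr10 (-1.63, adjusted p = 0.0271) were lower. The block added Ccr1 higher (1.38, adjusted p = 0.0430) and Ccr9 (-1.24, adjusted p = 0.000738) and Ccr8 (-1.55, adjusted p = 0.0170) lower.

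Between TdLN and Healthy edgeR called 0 of the 15 receptors, and 6 had an unadjusted p under 0.05. The block called Ccr6 (log2 fold change 1.09, adjusted p = 0.00140) and Ccrl2 (0.87, adjusted p = 0.0417) higher and Ccr10 (-1.78, adjusted p = 0.0135) lower.

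The genes whose log2 CPM ran most like a ligand over the 12 libraries were taken from 10760 protein-coding genes. Because the libraries differ by group and prefix, the likeness is a description. Ccl5 was most like Pfkfb3 (Pearson r = 0.98), Spata31d1b (0.98) and Cacna1b (0.97). Ccl22 was most like Adora2a (0.97), Mmp25 (0.97) and Spint2 (0.96). Xcl1 was most like Gzma (0.97), Npc2 (0.95) and Kxd1 (0.95). Ccl17 was most like Pard6a (0.92), Zdhhc24 (0.92) and Hscb (0.91).

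Ccl2 ran most like Tmem35b (0.96), Cstb (0.94) and Id2 (0.94) by Pearson r, and Ccl7 like Rabggtb (0.95) and Nt5c3 (0.95). Ccl6 ran most like Ms4a6d (0.95), Golt1b (0.94) and Ms4a6b (0.93). Ccl9 ran like Ctse (0.90) and Ssr4 (0.90). Ccl3 ran most like Mmadhc (0.92), Dsn1 (0.91) and Acp1 (0.91), and Ccl4 most like Mtx2 (0.93), Klhdc2 (0.89) and Utp11 (0.89).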

How the data were processed

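RNA of 12 libraries of CD11c cells was prepared with the RNeasy Plus Micro and NEBNext Ultra II Directional kits, per the labels' protocols. The authors deposited estimated counts and TPM of each transcript, from Salmon with mm10, per the submitters' processing notes. The tables' name says sailfish. The sources used here do not give the version, annotation or strand setting. Of 132374 transcripts, 131974 were matched by identifier to GENCODE M21 (GRCm38) and summed to 52355 genes. The other 400 held 0.116% to 0.147% of counts and were left out. Sums were rounded.

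The test was edgeR 4.0.16 under R 4.3.3 (quasi-likelihood F test, robust, TMM scaling, filterByExpr with minimum count 10, all 12 libraries, group as only term, 9 residual degrees of freedom), with Benjamini-Hochberg adjustment over 23729 genes and a threshold of 0.05. The fit without the block was tested on simulated data that held no prefix effect, so that test does not cover the pairing described next. Same-prefix libraries deviated together at 0.204 to 0.473 in all 12 pairs, and other pairs at -0.450 to 0.333, so the prefix was taken to pair libraries and also fitted as a block (6 residual degrees of freedom). The biological coefficient of variation was 33.9%, and 20.7% with the block.

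Alternatives were DESeq2 1.42.0, RLE scaling, no filter, limma 3.58.1 (voom, and log2 of TPM + 0.5), 2 groups only and leaving out each library or prefix. Counting only protein-coding transcripts of the ligands was added after seeing the data. Members and lists were chosen with earlier results of these data known. All 10 members are named, as are other ligands and receptors called in either fit and, per marker list, up to 3 genes with the highest CPM; other marker genes named were chosen after their values were seen. For each ligand, the 3 genes with the highest Pearson r (mean log2 CPM 2 or more) are named. Some genes that these rules take are not reported here. RefSeq windows were found for 6 of the 10 ligands.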

Additional observations from a re-analysis of the deposited data

Results flagged for a closer look

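In 3 of 30 sets of 4 libraries (10 ligands in 3 groups) 1 library stood apart from the other 3, by a gap above Dixon's critical value for its share of the group's range. By chance about 1 set in 20 does so. Ccl22 was highest in TdLN_CD40 replicate 4, at 2250.63 CPM, with a gap of 0.876 of the range. Ccl5 was highest in the same library, at 1091.17 CPM, with a gap of 0.843 of the range. Ccl9 was highest in TdLN replicate 1, at 177.945 CPM, with a gap of 0.853 of the range. Replicate 1 also had the highest Ccl9 of the TdLN_CD40 and of the Healthy libraries. The calls of Ccl22 and Ccl5 against TdLN and against Healthy were kept without TdLN_CD40 replicate 4.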

How the results depend on the processing

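Of 750 values of named genes under alternatives, 689 kept their direction and side of the threshold, 23 passed it newly, 22 no longer passed it and 16 changed sign, none of them called. Calls over all genes for TdLN against Healthy were 47, and became 1495 with the replicate block, 75 without a filter, 368 with DESeq2, 1 with voom, 16 with log2 TPM, 25 with 2 groups only, 0 to 101 without 1 library, and 107, 193, 164 and 1502 with the block without replicates 1 to 4. Ligands called were 0, and 1 with the block (also on protein-coding transcripts) and 4 with the block without replicate 4. For TdLN_CD40 against TdLN the 635 genes became 3161 with the block, 1186 with DESeq2, 284 with log2 TPM, 323 to 547 without 1 library, and 1609, 2241, 2311 and 2333 with the block without replicates 1 to 4. The 3 ligands became 6 with the block, also on protein-coding transcripts, 5, 5 and 5 without replicates 1 to 3 and 6 without replicate 4. For TdLN_CD40 against Healthy the 1490 genes became 4781 with the block, 815 with log2 TPM, 829 to 1535 without 1 library, and 2751, 3134, 3172 and 4450 with the block without replicates 1 to 4. The 6 ligands became 2 to 6 without 1 library. Voom and log2 TPM called 5 each, without Ccl7.

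Signs changed when 1 library was left out. For TdLN against Healthy, log2 fold changes ran from -0.0225 to 0.67 for Ccl2 and from -0.65 to 0.10 for Ccl9. For TdLN_CD40 against TdLN they ran from -0.39 to 0.37 for Ccl6, -0.54 to 0.47 for Ccl9, -0.58 to 0.0610 for Ccl3 and -0.45 to 0.0794 for Ccl4, and against Healthy from -0.68 to 0.0594 for Ccl9. With the block, TdLN_CD40 against TdLN gave -0.0546 for Ccl6 without replicate 2 and 0.0341 for Ccl9 without replicate 4. The cause was not tested. Depth limits Ccl7 most, with 12 estimated counts in its lowest libraries.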

Other observations

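Within groups, the ligands varied in sets. After subtracting group means, Ccl6 and Ccl9 correlated at 0.87 over the 12 libraries, Ccl2 and Ccl6 at 0.83, Ccl2 and Ccl7 at 0.79, Ccl7 and Ccl9 at 0.78 and Ccl2 and Ccl9 at 0.77. Ccl5 and Ccl22 correlated at 0.80, Ccl17 and Xcl1 at 0.71, and Ccl3 and Ccl4 at 0.62. Ccl22 ran against Ccl3 (-0.84) and Ccl4 (-0.79). These libraries share prefixes and depth, so the values are a description. The libraries of prefix 1 had the highest mean of Ccl2, Ccl6, Ccl7 and Ccl9, and those of prefix 3 the highest of Ccl3 and Ccl4.

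The 10 ligands took 0.231% to 0.393% of all TPM in TdLN_CD40, 0.0788% to 0.114% in TdLN and 0.102% to 0.179% in Healthy. Langerhans cell markers summed to 35.5 to 55.7 CPM in TdLN_CD40, 61.4 to 122 CPM in TdLN and 138 to 163 CPM in Healthy, with 3 of 4 called lower in TdLN_CD40 against Healthy. Type 1 dendritic cell markers, which include Xcr1, summed to 1460 to 2850 CPM in TdLN_CD40, 2409 to 5025 CPM in TdLN and 2874 to 5072 CPM in Healthy.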
